A study of Rattus norvegicus with 18 samples.

Results

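Immediate early genes, which cells switch on within minutes of stimulation, were followed across rat hypothalamus and fat. The 10 genes were the early growth response factors Egr1, Egr2, Egr3 and Egr4, the AP-1 subunits Fos, Fosb and Junb, the synaptic protein gene Arc, and the orphan nuclear receptors Nr4a1 and Nr4a3. Every probe set (a group of short probes for 1 transcript) whose only platform symbol was one of these 10 genes was taken, which gave 15 of the 31099 probe sets on the array. Nr4a3 had 3 probe sets, Egr2, Egr4 and Fos had 2 each, and the others had 1. The RYGB-Success rats were losing weight after Roux-en-Y gastric bypass, surgery that leaves a small stomach pouch joined to a lower stretch of small intestine. The RYGB-Fail rats had the same surgery and were regaining weight. The Pair-Fed rats received as much food as the treated rats. Each group gave 3 biological replicates of hypothalamus and 3 of subcutaneous abdominal fat, on 18 arrays in all. The labels give no strain, age, time after surgery, hour of tissue collection or sham operation, and do not say whether both tissues came from the same rats.

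Immediate early genes need no new protein for their induction. Calcium and growth factor signals pass through MAP kinases and the cAMP pathway to factors already bound at their promoters, chiefly serum response factor at CArG boxes and CREB at cAMP response elements, and the RNAs then decay quickly. In brain, Fos and Egr1 RNA are widely used as marks of recent neuronal activity. In fat the same genes respond to growth factors, adrenergic signals and wounding.

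Promoters are shown because several of these genes had lower mean signals in the hypothalamus of operated rats. None of these differences passed in the main fit after adjustment over all probe sets tested. The RefSeq promoter table of the GRCr8 assembly held 6 of the 10 genes (Egr1, Egr2, Egr4, Fosb, Junb and Nr4a1). The 250 bases before the annotated start are printed for the 3 of them with an unadjusted p under 0.05 between RYGB-Success and Pair-Fed hypothalamus, in the direction of transcription. Capitals mark CArG boxes, the core sites of serum response factor, and TGACG on either strand (CGTCA on the other), the core of a cAMP response element.
Egr1, chr18:26736828-26737077, plus strand: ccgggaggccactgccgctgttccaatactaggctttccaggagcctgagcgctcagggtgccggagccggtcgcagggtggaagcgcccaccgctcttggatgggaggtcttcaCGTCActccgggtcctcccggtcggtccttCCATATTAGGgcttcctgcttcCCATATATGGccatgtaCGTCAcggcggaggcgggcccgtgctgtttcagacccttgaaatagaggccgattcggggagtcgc
Egr2, chr20:21054442-21054691, minus strand: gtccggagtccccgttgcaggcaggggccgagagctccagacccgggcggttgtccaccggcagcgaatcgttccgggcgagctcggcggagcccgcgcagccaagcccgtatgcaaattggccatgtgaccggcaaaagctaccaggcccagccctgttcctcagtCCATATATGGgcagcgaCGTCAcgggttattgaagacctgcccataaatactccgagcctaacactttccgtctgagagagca
Nr4a1, chr7:134259888-134260137, plus strand: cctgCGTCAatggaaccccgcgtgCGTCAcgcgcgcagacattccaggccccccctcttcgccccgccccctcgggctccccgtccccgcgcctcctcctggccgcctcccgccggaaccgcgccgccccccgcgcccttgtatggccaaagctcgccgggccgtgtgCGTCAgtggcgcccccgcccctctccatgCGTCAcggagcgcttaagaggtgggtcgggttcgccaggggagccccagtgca
Egr1 held 2 CArG boxes, whose first bases lay at -105 and -83 from the start, and 2 TGACG motifs, at -135 and -66. Egr2 held 1 CArG box at -83 and 1 TGACG at -66. Nr4a1 held no CArG box and 4 TGACG motifs, at -246, -226, -82 and -53. Among the promoters not printed, Egr4 had 2 TGACG motifs, Junb had 1 and Fosb had none of either motif. Of 33469 promoters of the same length, 1.497% held a CArG box and 18.22% a TGACG motif. The Egr motif GCGTGGGCG was in none of the 6 promoters and in 0.4781% of all of them, and its variant GCGGGGGCG was in Nr4a1 and in 2.447%. These are matches of letters, and no binding was measured here. A link between these motifs and the signals was not tested.

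Values are linear array signals, already scaled by the authors to a common trimmed mean, and differences are on the log2 scale ± SE from limma. In each tissue the dimmest 40% of probe sets were left untested, by mean log2 signal, which put the lowest mean signal at 52.7 in hypothalamus and 88.9 in fat. Adjusted p is the Benjamini-Hochberg value over all 18625 probe sets tested in a tissue, with a threshold of 0.05. Adipocyte markers summed to 63191 to 173192 on the fat arrays and to 1385 to 3143 in hypothalamus, and neuron markers summed to 51881 to 75930 in hypothalamus and to 1800 to 3573 in fat. The third RYGB-Fail fat array stood apart, with a median signal of 288, the highest in fat, and the lowest median correlation with the other fat arrays, 0.731. Its beta-actin 3' to 5' ratio was 2.46, the lowest in fat, where the highest was 24.3. In hypothalamus this ratio ran from 6.65 on the third RYGB-Success array to 179 on the second Pair-Fed array, so the arrays differed widely in it. The number of arrays limits the precision of every value below.

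In hypothalamus, 8 of the 15 probe sets passed the filter, covering 7 of the 10 genes: Egr1, Egr2, Egr4, Fos, Fosb, Nr4a1 and 2 probe sets of Nr4a3. None of the 8 passed the adjusted threshold between RYGB-Success and Pair-Fed, where 0.0107% of all probe sets passed. At an unadjusted limma p under 0.05, 5 of the 8 (Egr1, Egr2, Nr4a1 and both of Nr4a3) were lower in RYGB-Success, against 6.2% of all probe sets. Either direction counted, 13.1% of all were past that level. The 3 RYGB-Success arrays lay below all 3 Pair-Fed arrays for 6 of the 8, where 7.28% of all probe sets did so. They were the 5 above and Fosb, and among the untested probe sets 1 of Nr4a3 did the same. Over all 15 probe sets, the untested ones included, the mean log2 signal was lower in RYGB-Success for 11 and higher for 4, with a median difference of -0.75. Of all probe sets tested, 45.6% had a difference below 0 and their median was 0.05, which median centring of the arrays moved to -0.19. In these bulk samples, fewer cells expressing a gene and less RNA per cell cannot be told apart.

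**Figure D1:**
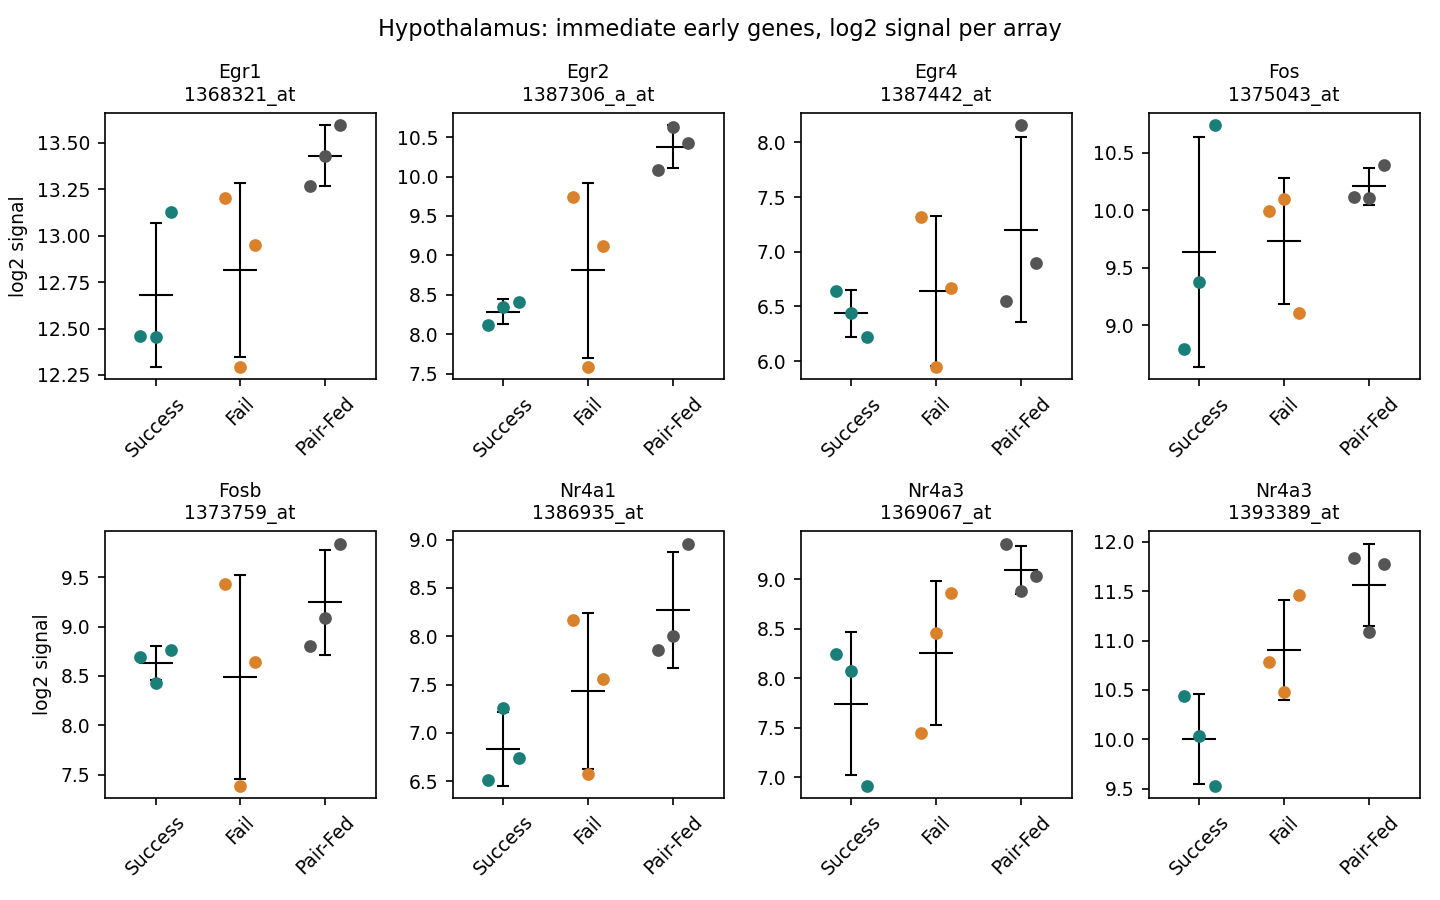
Log2 signal of the 8 tested immediate early probe sets in hypothalamus, 1 panel each, with RYGB-Success, RYGB-Fail and Pair-Fed from left to right; points are single arrays and bars are the mean ± SD of 3 arrays. All 6 arrays of operated rats lie below the 3 Pair-Fed arrays for Egr1, Egr2 and Nr4a3 probe set 1369067_at, while Fos overlaps.

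Egr2, a zinc finger factor best known for its part in myelination and hindbrain patterning, had the largest difference between RYGB-Success and Pair-Fed among the tested members. Its probe set 1387306_a_at read 276, 324 and 340 in RYGB-Success, 854, 192 and 555 in RYGB-Fail, and 1085, 1581 and 1377 in Pair-Fed. Both operated groups lay wholly below Pair-Fed, and the RYGB-Fail arrays spread widest. The difference from Pair-Fed was -2.09 ± 0.41 in RYGB-Success (limma adjusted p = 0.190), a 4.26-fold lower signal. It was -1.57 ± 0.41 in RYGB-Fail (limma adjusted p = 1.00), -0.95 without the second RYGB-Fail array and -2.03 without the first. The RYGB-Success difference passed the threshold without the second RYGB-Fail array, which enters only through the shared spread (adjusted p = 0.00804), and when arrays were centred on their medians (-2.33, adjusted p = 0.0486).

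Egr1, the zinc finger factor often used as an activity marker beside Fos, read 5629, 5613 and 8953 in RYGB-Success, 9426, 5017 and 7914 in RYGB-Fail, and 9879, 11033 and 12379 in Pair-Fed. The highest array of the operated rats, 9426, lay just under the lowest Pair-Fed array. Differences from Pair-Fed were -0.75 ± 0.24 in RYGB-Success (limma adjusted p = 0.255) and -0.62 ± 0.24 in RYGB-Fail (limma adjusted p = 1.00). Egr4, a zinc finger factor of the same family, read 100.1, 87.0 and 74.5 in RYGB-Success, 159, 61.6 and 102 in RYGB-Fail, and 93.6, 286 and 119 in Pair-Fed. Its groups overlapped, and its differences were -0.77 ± 0.47 and -0.56 ± 0.47 for RYGB-Success and RYGB-Fail against Pair-Fed.

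Nr4a3 (Nor-1) and Nr4a1 (Nur77) are nuclear receptors that act without an established natural ligand. Nr4a3 probe set 1393389_at read 1391, 1051 and 740 in RYGB-Success, 1762, 1422 and 2823 in RYGB-Fail, and 3646, 2170 and 3506 in Pair-Fed. Its RYGB-Success arrays lay below every array of the other groups (4.69% of all probe sets lay wholly below RYGB-Fail), and RYGB-Fail overlapped Pair-Fed. Its differences from Pair-Fed were -1.56 ± 0.30 in RYGB-Success (limma adjusted p = 0.190) and -0.66 ± 0.30 in RYGB-Fail (limma adjusted p = 1.00). Probe set 1369067_at of the same gene read 302, 269 and 121 in RYGB-Success, 174, 351 and 466 in RYGB-Fail, and 656, 472 and 525 in Pair-Fed. Here both operated groups lay below Pair-Fed, with differences of -1.35 ± 0.40 in RYGB-Success (limma adjusted p = 0.229) and -0.84 ± 0.40 in RYGB-Fail. The untested probe set 1369217_at was dim, at 33.9, 12.5 and 13.2 in RYGB-Success, 7.22, 16.1 and 45.2 in RYGB-Fail, and 71.7, 61.6 and 42.4 in Pair-Fed. Its RYGB-Success arrays also lay below Pair-Fed.

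Nr4a1 read 91.3, 153 and 107 in RYGB-Success, 288, 95.5 and 188 in RYGB-Fail, and 231, 256 and 498 in Pair-Fed. Its RYGB-Success arrays lay below Pair-Fed, and 1 RYGB-Fail array lay among the Pair-Fed arrays. The differences from Pair-Fed were -1.43 ± 0.42 in RYGB-Success (limma adjusted p = 0.231) and -0.84 ± 0.42 in RYGB-Fail.

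The AP-1 subunits Fos and Fosb, which bind DNA as dimers with Jun proteins, had smaller differences that did not pass at the unadjusted level either. Fosb read 414, 346 and 435 in RYGB-Success, 690, 168 and 401 in RYGB-Fail, and 447, 545 and 916 in Pair-Fed. The RYGB-Success arrays lay just below Pair-Fed and the RYGB-Fail arrays overlapped it. Its differences were -0.61 ± 0.42 for RYGB-Success and -0.76 ± 0.42 for RYGB-Fail against Pair-Fed. Fos probe set 1375043_at read 444, 663 and 1714 in RYGB-Success, 1021, 1096 and 551 in RYGB-Fail, and 1112, 1105 and 1347 in Pair-Fed. The third RYGB-Success array had the highest Fos signal of all 9, while all RYGB-Fail arrays lay below Pair-Fed. The Fos differences were -0.57 ± 0.41 and -0.47 ± 0.41 for RYGB-Success and RYGB-Fail against Pair-Fed (limma adjusted p = 0.559 and 1.00). Single arrays moved them: the RYGB-Success difference was -0.15 without the first RYGB-Success array and -1.12 without the third, and the RYGB-Fail one ran from -0.66 to -0.16.

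In hypothalamus 7 member probe sets were too dim to test, with single signals of 1.37 to 197 and a median of 23.4. They were those of Arc, Egr3 and Junb, the Nr4a3 probe set above, and the second probe sets of Egr2, Egr4 and Fos. Arc, whose RNA travels to active synapses and whose protein trims AMPA receptors there, read 55.4, 130 and 5.71 in RYGB-Success, 149, 41.5 and 44.6 in RYGB-Fail, and 89.3, 7.51 and 197 in Pair-Fed. The groups overlapped, with both the second-lowest and the highest array in Pair-Fed, so at these signals no difference in Arc was detectable. Of these 7 probe sets, 3 had a lower and 4 a higher mean in RYGB-Success than in Pair-Fed.

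Both operated groups were set against the same 3 Pair-Fed arrays, so the 2 comparisons are not independent. In RYGB-Fail against Pair-Fed, 0 of the 8 tested probe sets passed, as did 0% of all probe sets, while 445 (2.39%) had an unadjusted limma p under 0.05. Egr1, Egr2 and Nr4a3 1393389_at were lower at that level, where 0.58% of all probe sets were. Of the 8, 4 (Egr1, Egr2, Fos and Nr4a3 1369067_at) had all RYGB-Fail arrays below all Pair-Fed arrays, where 3.36% of all probe sets did. With both operated groups pooled, all 6 arrays lay below the 3 Pair-Fed arrays for Egr1, Egr2 and Nr4a3 1369067_at, where 1.2% of all probe sets did. The combined difference from Pair-Fed was -1.83 ± 0.36 for Egr2 (limma adjusted p = 0.447), -1.11 ± 0.26 for Nr4a3 1393389_at (limma adjusted p = 0.544) and -0.68 ± 0.21 for Egr1 (limma adjusted p = 0.563). Again 0 of 8 passed, against 0% of all probe sets, and 7.74% of all had an unadjusted limma p under 0.05. At that level 5 of the 8 were lower, against 2.66% of all. Between RYGB-Success and RYGB-Fail, 0 of 8 passed, against 0.00537% of all, and 6.01% of all had an unadjusted p under 0.05. Nr4a3 1393389_at was the 1 member past that unadjusted level, at -0.90 ± 0.30 (limma adjusted p = 0.784).

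**Figure D2:**
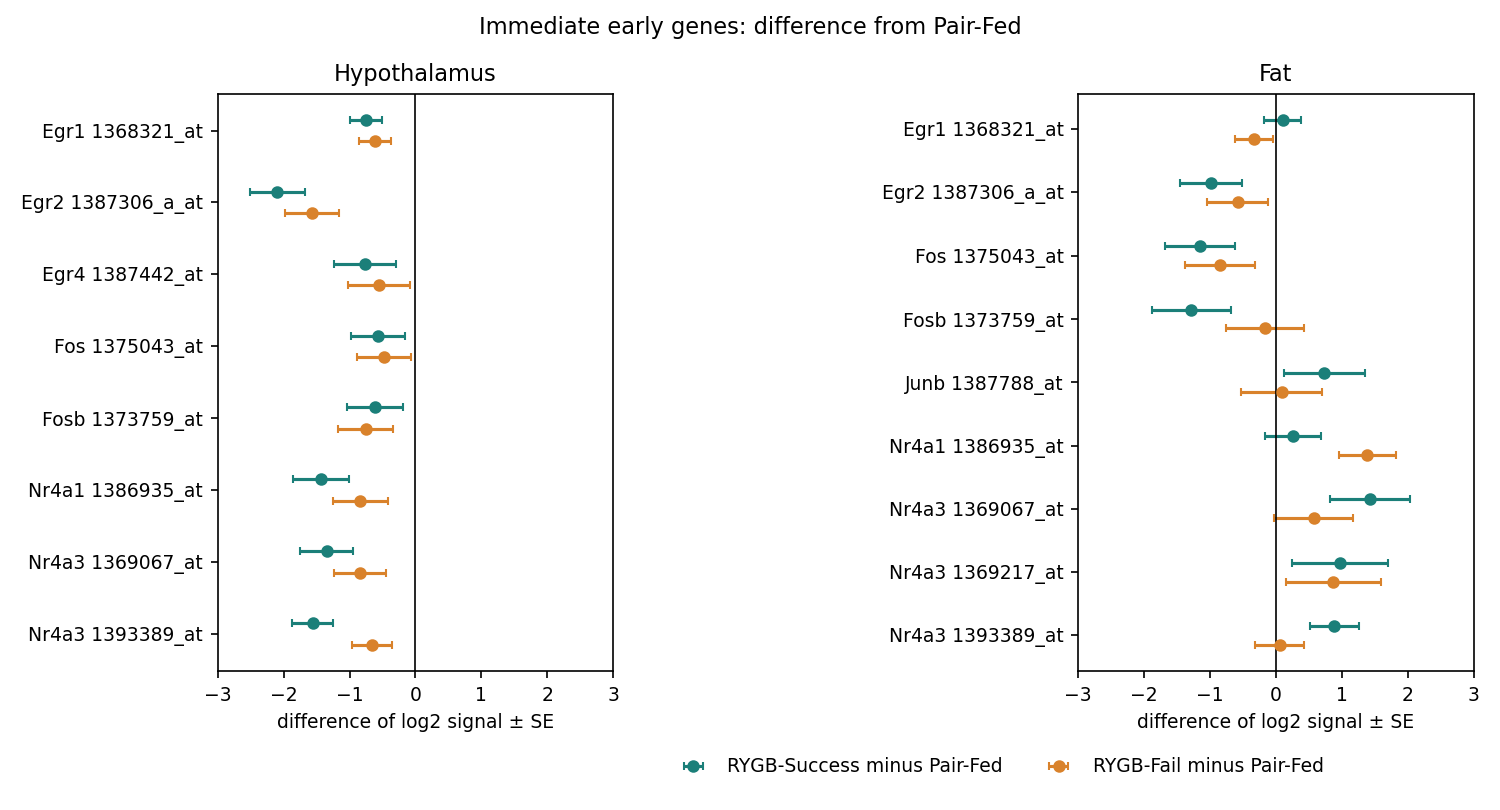
Log2 differences ± SE against Pair-Fed for every tested immediate early probe set in hypothalamus and fat, with RYGB-Success and RYGB-Fail drawn separately and a line at 0. All 8 hypothalamic probe sets lie left of 0 in both operated groups, and the fat values fall on both sides.

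Markers of neighbouring brain regions differed between the same hypothalamus arrays. Of 10 cortex and striatum markers on the array, 8 passed the filter, and all 8 had lower means in RYGB-Success (median -1.08) and in RYGB-Fail (median -0.48) than in Pair-Fed. Their summed signal was 4707 to 10744 in RYGB-Success, 4440 to 16525 in RYGB-Fail and 12749 to 16772 in Pair-Fed. Hypothalamic neuropeptide and transcription factor markers summed to 18127 to 36393 in RYGB-Success, 14344 to 23703 in RYGB-Fail and 8540 to 14244 in Pair-Fed, with 12 of 13 tested markers higher in RYGB-Success (median 1.22) and 13 of 13 in RYGB-Fail (median 0.80). Neuron markers had a median difference of -0.08 in RYGB-Success. Choroid plexus and ependyma markers were higher in 4 of 4 tested genes in RYGB-Success (median 0.97) and in RYGB-Fail (median 0.79), and summed to 13330 to 20905 in RYGB-Success, 14557 to 18933 in RYGB-Fail and 8295 to 13593 in Pair-Fed. Macrophage and microglia markers were higher in 4 of 6 tested genes in RYGB-Success (median 0.19) and in 6 of 6 in RYGB-Fail (median 0.52). They summed to 1594 to 1802 in RYGB-Success, 1945 to 2109 in RYGB-Fail and 1313 to 1570 in Pair-Fed, 3 ranges that do not overlap. No marker of these 5 lists passed the adjusted threshold. At an unadjusted limma p under 0.05, 10 of the 13 hypothalamus markers were higher in RYGB-Success than in Pair-Fed, against 6.94% of all probe sets. At that level 4 of the 8 cortex and striatum markers were lower, against 6.2% of all. In RYGB-Fail 5 of the 13 were higher and 0 of the 8 lower, against 1.81% and 0.58% of all.

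**Figure D3:**
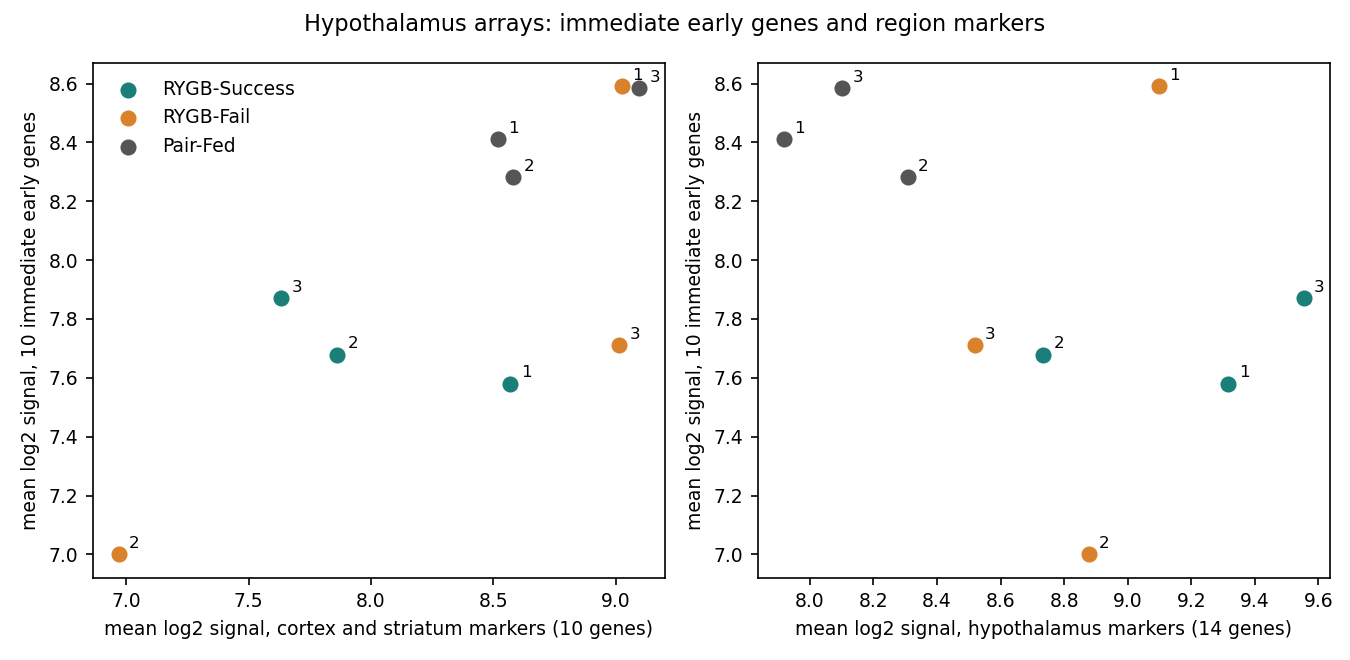
Mean log2 signal of the 10 immediate early genes, the untested ones included (vertical), on each hypothalamus array, coloured by group and numbered by replicate. The horizontal axis is the mean of the cortex and striatum markers (left) or of the hypothalamus markers (right). On the left, the second RYGB-Fail array is lowest on both axes, at 6.97 for the markers, and the first RYGB-Success array pairs a low member mean (7.58) with a marker mean (8.57) inside the Pair-Fed range. On the right, the second RYGB-Fail array is at 8.88 for the markers, above the Pair-Fed range of 7.92 to 8.31.

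By array, the mean log2 signal of the 10 genes was 7.58, 7.68 and 7.87 in RYGB-Success, 8.59, 6.9998 and 7.71 in RYGB-Fail, and 8.41, 8.28 and 8.58 in Pair-Fed. These means include Arc, Egr3 and Junb, which were too dim to test and whose scatter enters them. The cortex and striatum mean was 8.57, 7.86 and 7.63 in RYGB-Success, 9.03, 6.97 and 9.01 in RYGB-Fail, and 8.52, 8.58 and 9.09 in Pair-Fed. With that marker level as a covariate, a setting chosen after seeing the data, the RYGB-Success difference from Pair-Fed was -1.60 for Egr2, -1.33 for Nr4a3 1369067_at, -1.28 for Nr4a3 1393389_at, -1.04 for Nr4a1, -0.57 for Egr1 and -0.08 for Fosb. Egr4 was at -0.46 with it, and none of the tested members passed. Blood cell markers were also higher in RYGB-Success in 4 of 4 tested genes (median 2.59). All 4 had an unadjusted limma p under 0.05, where 6.94% of all probe sets were higher. They summed to 13634 to 26443 in RYGB-Success, 3517 to 8179 in RYGB-Fail and 3144 to 12534 in Pair-Fed. With the blood marker level as the covariate the RYGB-Success difference was -1.01 for Egr2, -0.53 for Nr4a1, -0.60 for Egr1, -1.99 for Nr4a3 1369067_at and -1.67 for 1393389_at, and those of Fosb (0.84) and Egr4 (1.19) changed sign. For Fos the 2 fits gave -1.26 and -0.88, larger in size than the -0.57 without a covariate. The blood marker mean log2 was 8.35 to 9.63 in RYGB-Success, 5.81 to 7.19 in RYGB-Fail and 5.67 to 6.82 in Pair-Fed. As RYGB-Success overlapped neither other group, the blood fit separates marker level from group poorly. The part of tissue makeup in the differences was not tested beyond these fits.

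Other genes of the same pathway were examined as lists, and no gene of these lists passed in any comparison between treatments within a tissue. Among 25 tested genes of 33 other immediate early genes on the array, 12 were higher and 13 lower in RYGB-Success hypothalamus. Their median was -0.08, and 45.6% of all probe sets had a difference below 0. Of the 25, 4 had an unadjusted limma p under 0.05, all lower. Among all probe sets 6.2% were lower at that level, and 13.1% passed it in either direction. The 2 with the lowest p were Ier5, a stress-induced early gene, at -1.26 ± 0.29 (limma adjusted p = 0.215), and Klf10, a TGF-beta inducible zinc finger repressor, at -1.16 ± 0.28 (limma adjusted p = 0.215). Ier5 was also at -0.82 ± 0.29 in RYGB-Fail against Pair-Fed. With the cortex and striatum or the blood marker level in the model, the RYGB-Success differences were -0.96 and -0.16 for Ier5, and -1.14 and -1.90 for Klf10. The MAP kinase phosphatases and Sprouty genes, which damp the signal, had a median of -0.35 over 7 tested genes, with Spry2 at -1.09 ± 0.32 (limma adjusted p = 0.229).

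Of 18 tested upstream kinases and factors, the median was -0.16 in RYGB-Success against Pair-Fed. Mrtfa, a coactivator of serum response factor, was at -0.93 ± 0.31 and Map2k2, the kinase MEK2, at 0.77 ± 0.32 (limma adjusted p = 0.262 and 0.340). Late activity response genes had a median of -0.15 over 9 tested, with Inhba, the activin A subunit, at -1.002 ± 0.28 and Vgf, a neuropeptide precursor, at 0.70 ± 0.29 (limma adjusted p = 0.221 and 0.340). Among 5 tested partners of the Egr and Nr4a proteins, Rxrg, a retinoid receptor, was at -1.15 ± 0.48 (limma adjusted p = 0.348). The 5 tested heat shock and handling response genes had a median of 0.06, and none had an unadjusted p under 0.05.

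The members' pattern over the 9 hypothalamus arrays was taken as the mean of all 10 member genes, each centred on its own mean. That mean includes Arc, Egr3 and Junb, which were too dim to test and scatter widely on the log scale. Egr3 alone ran from 1.38 to 85.4. The likeness values therefore rest in part on dim signals. Among 13634 probe sets of other named genes, those most like it were Senp3, a SUMO protease (Pearson r = 0.968), Cyfip2, a regulator of actin assembly (0.965), Ntrk3, the neurotrophin-3 receptor (0.952), Acvr2a, an activin receptor (0.952), and Klhl2 (0.948). Of the members themselves, Fosb (0.915), Egr2 (0.898), Egr1 (0.894) and Nr4a1 (0.858) were closest to the mean they belong to, and Egr4 (0.634) and Fos (0.382) had lower values. The Nr4a3 probe sets 1393389_at and 1369067_at had r = 0.522 and 0.147. The points share group differences and array scaling, so these values describe the 9 arrays and carry no test.

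In fat, 9 of the 15 probe sets passed the filter, also covering 7 genes: Egr1, Egr2, Fos, Fosb, Junb, Nr4a1 and the 3 probe sets of Nr4a3. None passed between RYGB-Success and Pair-Fed, as with 0% of all probe sets, and 905 of all (4.86%) had an unadjusted limma p under 0.05. Of the members, 2 Nr4a3 probe sets were higher at that level, where 1.84% of all were. The members split: all RYGB-Success arrays lay below all Pair-Fed arrays for Egr2, Fos and Fosb, where 7.69% of all probe sets did, and above them for Junb and the 3 Nr4a3 probe sets, where 10.9% did. Over all 15 probe sets, 7 were lower and 8 higher in RYGB-Success, with a median of 0.10, while 41.8% of all probe sets had a difference below 0. Their median was 0.11, and -0.27 with median centring.

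**Figure D4:**
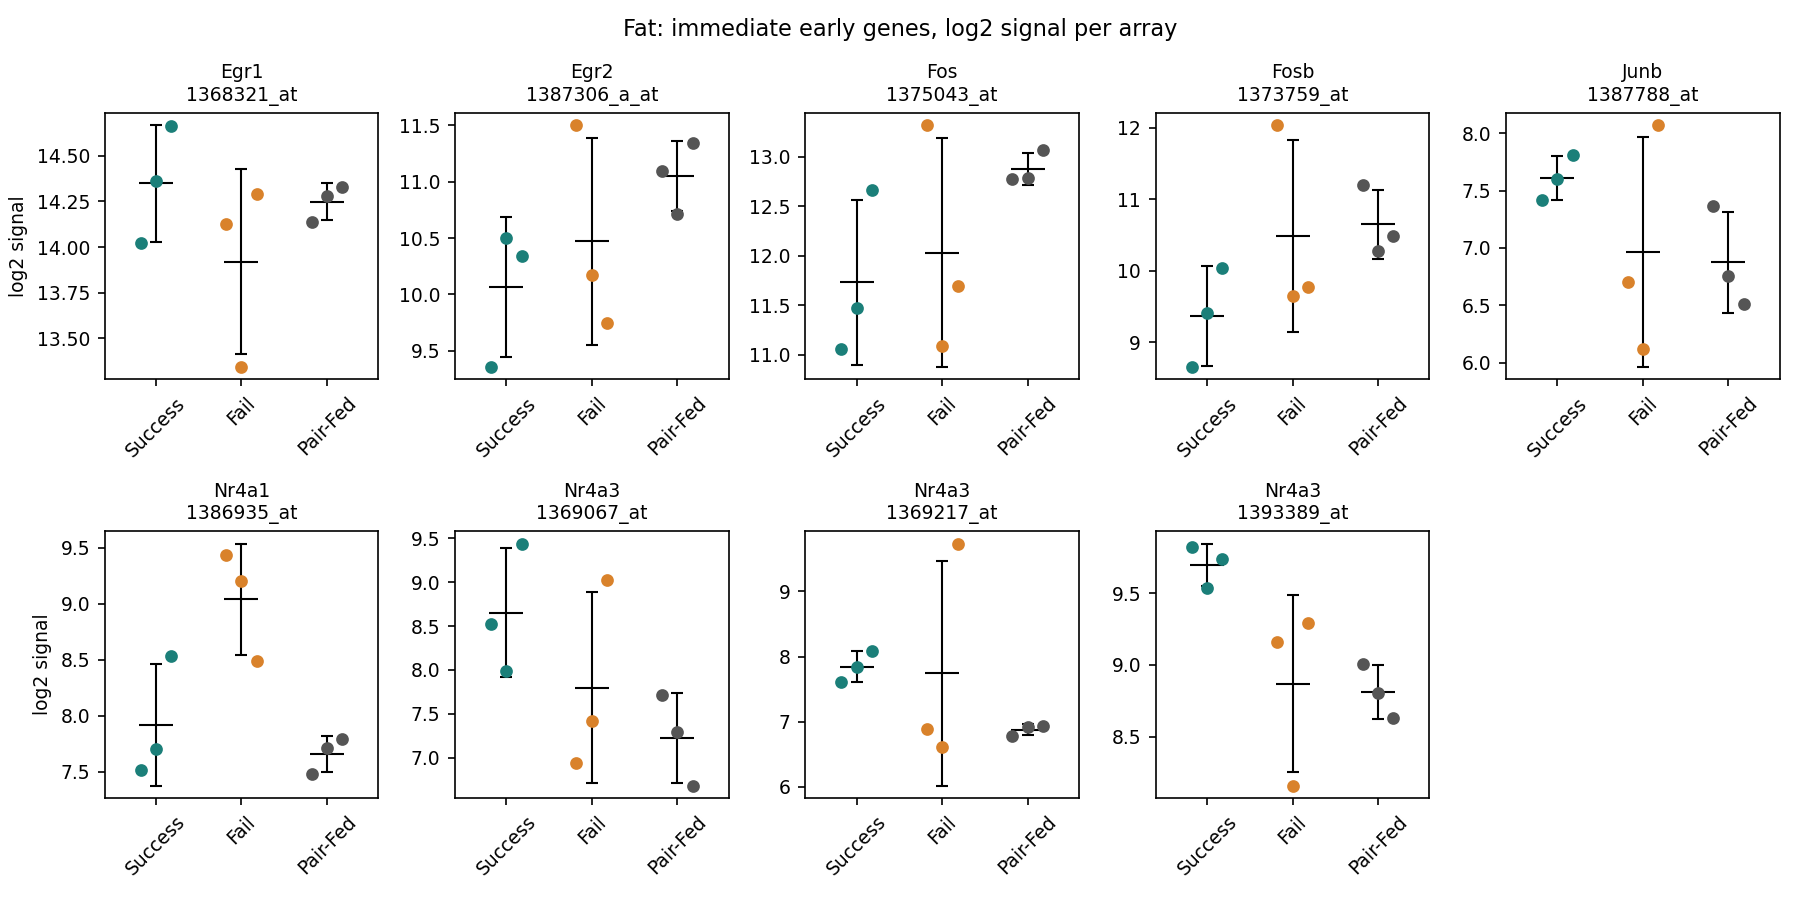
Log2 signal of the 9 tested immediate early probe sets in subcutaneous fat, 1 panel each, with RYGB-Success, RYGB-Fail and Pair-Fed from left to right; points are single arrays and bars are the mean ± SD of 3 arrays. RYGB-Success lies below Pair-Fed for Egr2, Fos and Fosb and above it for Junb and Nr4a3, and RYGB-Fail lies above Pair-Fed for Nr4a1.

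Fos read 2138, 2841 and 6477 in RYGB-Success fat, 10226, 2173 and 3310 in RYGB-Fail, and 7009, 7082 and 8585 in Pair-Fed. The RYGB-Success arrays lay below Pair-Fed, while RYGB-Fail held the highest array of all. Its RYGB-Success difference from Pair-Fed was -1.15 ± 0.53 (limma adjusted p = 0.975). Fosb read 402, 679 and 1052 in RYGB-Success, 4201, 801 and 875 in RYGB-Fail, and 2343, 1240 and 1428 in Pair-Fed, a RYGB-Success difference of -1.28 ± 0.60 (limma adjusted p = 0.975). Its first RYGB-Fail array was again the highest. Egr2 read 656, 1451 and 1294 in RYGB-Success, 2896, 1154 and 857 in RYGB-Fail, and 2189, 1681 and 2587 in Pair-Fed, with a RYGB-Success difference of -0.98 ± 0.46 (limma adjusted p = 0.975). Egr1 overlapped between all groups, at 16651, 21074 and 25912 in RYGB-Success, 17887, 10389 and 20021 in RYGB-Fail, and 17990, 19902 and 20597 in Pair-Fed.

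Nr4a3 stood on the other side in RYGB-Success fat. Probe set 1369067_at read 368, 255 and 694 in RYGB-Success, 123, 171 and 521 in RYGB-Fail, and 209, 156 and 103 in Pair-Fed, with a RYGB-Success difference of 1.42 ± 0.60 (limma adjusted p = 0.972). Probe set 1393389_at read 904, 742 and 852 in RYGB-Success, 571, 286 and 627 in RYGB-Fail, and 515, 446 and 396 in Pair-Fed, with a difference of 0.88 ± 0.37 (limma adjusted p = 0.972). Its RYGB-Success arrays lay above every array of both other groups, and 5.26% of all probe sets lay wholly above RYGB-Fail. Probe set 1369217_at read 194, 229 and 271 in RYGB-Success, 119, 97.7 and 851 in RYGB-Fail, and 109, 121 and 122 in Pair-Fed. Junb, an AP-1 subunit that often opposes Jun, read 171, 194 and 224 in RYGB-Success, 104, 69.5 and 269 in RYGB-Fail, and 165, 108 and 91.3 in Pair-Fed. For this Nr4a3 probe set and for Junb the highest signal came from the third RYGB-Fail array, the one that stood apart.

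Nr4a1 was the tested member with an unadjusted p under 0.05 in RYGB-Fail fat. It read 182, 209 and 371 in RYGB-Success, 692, 592 and 358 in RYGB-Fail, and 179, 209 and 221 in Pair-Fed. All RYGB-Fail arrays lay above Pair-Fed, where 2.57% of all probe sets did so and 1.42% were higher at an unadjusted limma p under 0.05. The RYGB-Fail difference from Pair-Fed was 1.38 ± 0.43 (limma adjusted p = 1.00), and the RYGB-Success difference from RYGB-Fail was -1.13 ± 0.43 (limma adjusted p = 0.830). Leaving out single arrays gave 1.19 to 1.66 for RYGB-Fail against Pair-Fed, and the adjusted p was at least 0.164 throughout. With the skeletal muscle marker level as a covariate, the difference was 0.38 (limma adjusted p = 0.807) for RYGB-Fail against Pair-Fed and -0.40 (limma adjusted p = 0.798) for RYGB-Success against RYGB-Fail. With the macrophage marker level it was 1.44 and -1.10 in the same comparisons. The muscle marker mean log2 was 9.23 to 14.11 in RYGB-Fail, 7.32 to 8.40 in RYGB-Success and 5.99 to 6.95 in Pair-Fed. These ranges do not overlap, so the muscle fit separates marker level from group poorly. No member passed in RYGB-Fail against Pair-Fed or in RYGB-Success against RYGB-Fail, as with 0% of all probe sets in each. At an unadjusted limma p under 0.05 were 1 and 2 of the 9 members, against 2.69% and 5.69% of all probe sets. Besides Nr4a1, Nr4a3 1393389_at was past that level in RYGB-Success against RYGB-Fail, at 0.83 ± 0.37 (limma adjusted p = 0.876).

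In fat 6 member probe sets were too dim to test, with signals of 2.09 to 236 and a median of 38.6: those of Arc and Egr3, both of Egr4, and the second ones of Egr2 and Fos. Markers of other cell types also had unequal mean signals in the fat groups. None passed the adjusted threshold against Pair-Fed, as with 0% of all probe sets in both comparisons. Of all probe sets, 41.8% had a difference below 0 in RYGB-Success and 58.1% in RYGB-Fail. Macrophage markers had lower means in RYGB-Success for 7 of 7 tested genes (median -0.92) and summed to 3812 to 6532, against 5649 to 14407 in Pair-Fed. Epithelium markers were higher in 5 of 5 tested genes and summed to 751 to 8233 in RYGB-Success, against 422 to 603 in Pair-Fed. Blood cell markers were higher in 4 of 4 (median 1.72) and summed to 15251 to 41668 in RYGB-Success, against 5231 to 8568 in Pair-Fed. Endothelium and smooth muscle markers were higher in 7 of 8 (median 0.58), at 38783 to 54743 in RYGB-Success against 28258 to 40714 in Pair-Fed. Skeletal muscle markers had higher means for 10 of 11 tested genes (median 0.86) in RYGB-Success and for 11 of 11 (median 5.66) in RYGB-Fail. They summed to 16151 to 30197 in RYGB-Success and 29724 to 246566 in RYGB-Fail, against 12960 to 15723 in Pair-Fed, ranges that lie wholly above Pair-Fed. In RYGB-Fail, adipocyte markers had lower means in 8 of 8 tested genes (median -0.52), with sums of 63191 to 173192 in RYGB-Fail and 97764 to 159180 in Pair-Fed. In the covariate fits for muscle and macrophage markers no tested member passed. Besides Nr4a1, the muscle covariate moved Nr4a3 1393389_at in RYGB-Success against RYGB-Fail from 0.83 to 0.01. The macrophage covariate moved Fosb, Fos and Egr2 in RYGB-Success against Pair-Fed to -0.83, -0.88 and -0.76. The part of blood, epithelium, vessel and adipocyte markers in the members' values was not tested.

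Of the other immediate early genes, 28 were tested in fat, 19 higher and 9 lower in RYGB-Success with a median of 0.11. The median of all probe sets there was also 0.11, and 41.8% of them had a difference below 0. Klf4, a zinc finger factor, was at -1.25 ± 0.46 and Jun, the main AP-1 partner of Fos, at -0.80 ± 0.32 (limma adjusted p = 0.820 and 0.910). In RYGB-Fail fat, 10 were higher and 18 lower, with a median of -0.18. Of all probe sets, 58.1% had a difference below 0 in that comparison, with a median of -0.09. Among the upstream genes, Prkaca, the catalytic subunit of protein kinase A, was at -0.77 ± 0.33 in RYGB-Success (limma adjusted p = 0.972), and Rps6ka2, the kinase RSK3, at 1.94 ± 0.78 in RYGB-Fail (limma adjusted p = 1.00). With the muscle marker level in the model, the Rps6ka2 difference was -1.08. In fat the genes most like the members' mean pattern, among 13217 probe sets, were Kctd18 (r = 0.971), Med4, a Mediator subunit (0.939), Mcm6, a replicative helicase subunit (0.935), Smad5, a BMP signal transducer (0.922), and Bcl9, a beta-catenin cofactor (0.922), over 9 arrays. That pattern includes Arc, Egr3 and Egr4, which were too dim to test in fat.

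An interaction term asked whether a group's difference from another was unequal in the 2 tissues. It was fitted to the 15531 probe sets tested in both, 7 of them members. The fit took all 18 arrays as independent, although the labels do not say whether a fat and a hypothalamus array came from 1 rat. The interaction was largest in size for Nr4a3, whose RYGB-Success arrays lay below Pair-Fed in hypothalamus and above it in fat. The hypothalamus difference minus the fat difference was -2.44 ± 0.48 for probe set 1393389_at (limma adjusted p = 0.233) and -2.77 ± 0.75 for 1369067_at (limma adjusted p = 0.331). With array weights the 1393389_at value was -2.15 and passed (adjusted p = 0.0491). Nr4a1 gave -1.69 ± 0.62 (limma adjusted p = 0.490) for RYGB-Success and -2.22 ± 0.62 (limma adjusted p = 1.00) for RYGB-Fail, each against Pair-Fed, and Egr1 gave -0.85 ± 0.39 (limma adjusted p = 0.568) for RYGB-Success. At the adjusted threshold 0 of the 7 members and 0% of all probe sets passed, and at an unadjusted limma p under 0.05 4 of the 7 and 8.26% of all did. For RYGB-Success against RYGB-Fail the interaction of Nr4a3 1393389_at was -1.73 ± 0.48 (limma adjusted p = 0.732).

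Levels were also compared between the tissues over all 18 arrays, again taken as independent, with another filter, which kept 60% of probe sets on their mean over the 18. Of the 7 member probe sets that had also been tested within each tissue, 6 passed for hypothalamus minus fat, 5 of them lower in hypothalamus and 1 higher, where 65.2% of all probe sets passed, 37% lower and 28.2% higher. At an unadjusted p under 0.05, 68% of all differed. Fos fell by 2.35 ± 0.30 in hypothalamus relative to fat (limma adjusted p = 2.13e-06), with mean log2 signals of 9.86 ± 0.63 in hypothalamus and 12.21 ± 0.88 in fat (SD, n = 9 arrays each). Egr1 fell by 1.20 ± 0.16 in the same comparison (limma adjusted p = 3.05e-06), at 12.98 ± 0.47 in hypothalamus and 14.17 ± 0.36 in fat. The same direction held for Fosb (-1.38 ± 0.33, limma adjusted p = 0.00133), Egr2 (-1.37 ± 0.28, adjusted p = 0.00031) and Nr4a1 (-0.69 ± 0.26, adjusted p = 0.0250). The Nr4a1 call was lost without the second RYGB-Fail or the first Pair-Fed hypothalamus array or the third RYGB-Success fat array (-0.55, -0.62 and -0.59), and its value was -0.33 with quantile normalization and -0.15 with median centring. Median centring also ended the calls of Fosb (-0.84, adjusted p = 0.0732) and Egr2 (-0.83, adjusted p = 0.0515). Nr4a3 probe set 1393389_at was higher in hypothalamus by 1.70 ± 0.20 (limma adjusted p = 5.48e-07), at 10.82 ± 0.79 in hypothalamus and 9.13 ± 0.54 in fat. Probe set 1369067_at of the same gene was at 0.47 ± 0.31 (limma adjusted p = 0.194). It passed as higher in hypothalamus with median centring (1.01, adjusted p = 0.00305), with array weights (0.88, adjusted p = 0.00733) and without the third RYGB-Fail fat array (0.68, adjusted p = 0.0372). Junb entered this filter through its fat signals, 69.5 to 269. It read 8.89 to 87.6 in hypothalamus, where it was too dim to test, so no call is given for it. The third, 1369217_at, read 7.22 to 71.7 in hypothalamus and 97.7 to 851 in fat, so the probe sets of this gene disagree on which tissue has more. The share of calls that were higher in hypothalamus was 43.2% over all probe sets, and 64.6% when arrays were centred on their medians, which moved the median difference of all probe sets to 0.38, against -0.17 as deposited and 0.02 with quantile normalization.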

How the data were processed

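Total RNA was extracted with Qiagen RNeasy and amplified and biotin-labelled with NuGEN WT Ovation, per the labels' protocols. Each probe set has 1 linear signal intensity as the authors deposited it. The submitters' processing notes name MAS5 and GCOS; their versions are not given in the sources used here, and detection calls were not used. The deposited intensities had trimmed means of 500.1 to 500.2 on all 18 arrays, so the authors had scaled them. Such scaling does not equalise medians, and dim signals scatter widely on a log scale.

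Deposited intensities were log2-transformed without a pseudocount. Tests took the upper 60% of 31042 non-control probe sets per tissue, ranked on mean log2, and for tissue levels over all 18 arrays. Linear models with moderated, trended variances (limma 3.58.1, R 4.3.3) were fitted over the 9 arrays of a tissue, or over all 18 for tissue contrasts, 2-sided, with Benjamini-Hochberg adjustment. The fit was tested on simulated data first. A gene was named only from probe sets with 1 symbol, 20826 of 31099, while 436 had several and 9780 none. Lists took 1 probe set per gene, the brightest; 181 of 203 list genes were on the array, and up to 2 genes of the lowest p were named from a list with none past the threshold. Members and lists were chosen with earlier results of these data known.

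Groups and replicate numbers came from the sample titles. Within a tissue, deviations of same-numbered arrays of different groups correlated at -0.16 to 0.07 in hypothalamus and -0.13 to 0.29 in fat. Differently numbered ones correlated at -0.11 to 0.21 and -0.25 to 0.25. These ranges overlap and showed no clear pairing, but weak correlations over few arrays cannot exclude one. Between the tissues, same-numbered arrays of a group correlated at -0.06 to 0.20 (9 pairs) and differently numbered ones at -0.24 to 0.15 (18 pairs). Shared rats are not stated, and fits over both tissues took the arrays as independent. Alternatives were a pseudocount, other filters, quantile or median normalization, a signal floor, no trend, array weights, the beta-actin 3' to 5' ratio as a covariate, a replicate block and leaving out each array. Marker levels were added as covariates after the data were seen. Motifs were searched on both strands of the RefSeq promoters with Python 3.11.15.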

Additional observations from a re-analysis of the deposited data

How the results depend on the processing

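No tested member passed in a comparison of treatments within a tissue, apart from Egr2 under the 2 settings named next. For RYGB-Success against Pair-Fed in hypothalamus, the count of members past the threshold was 1 instead of 0 with median centring and 0 to 1 when single arrays were left out, the 1 being Egr2 without the second RYGB-Fail array. The tissue interaction for RYGB-Success against Pair-Fed gave 1 instead of 0 with array weights (Nr4a3 1393389_at). The cause was not tested.

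With the replicate number as a block, 0 members passed in each treatment comparison within a tissue and in each tissue interaction. In the tissue level comparison 7 passed. Those 7 include Junb, for which no call is given because it was too dim to test in hypothalamus. These counts were the same without the block.

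With the blood cell marker level as a covariate, signs changed in hypothalamus for RYGB-Success minus Pair-Fed of Fosb (0.84), Egr4 (1.19), Rxrg (1.17), Inhba (0.24) and Spry2 (0.16), and for both operated groups minus Pair-Fed of Fosb (0.17) and Egr4 (0.48). With the muscle marker level in the model, Rps6ka2 in RYGB-Fail minus Pair-Fed fat was -1.08. Blood marker levels in RYGB-Success hypothalamus did not overlap those in Pair-Fed, nor did muscle marker levels in RYGB-Fail fat. Such fits separate marker level from group poorly. Single differences of members and list genes, some not named in the text, were followed across the settings. Of these values, 1513 kept their direction and their side of the threshold, 8 changed sign, 6 gained a call and 7 lost one. The treatment differences among them started without a call, so keeping their side says little about stability.

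Counts over all probe sets depended more on single arrays. RYGB-Success against Pair-Fed in hypothalamus had 2 probe sets past the threshold and 0 to 64 across settings, with 64 without the second RYGB-Success array. In fat, RYGB-Success against Pair-Fed had 0 and 0 to 39 (array weights), RYGB-Fail against Pair-Fed 0 and 0 to 73 (beta-actin ratio), and RYGB-Success against RYGB-Fail 0 and 0 to 1050, with 1050 without the third RYGB-Fail array. The tissue level count was 12147 and 8398 to 16135. Low signals limited the dim probe sets of Arc, Egr3, Egr4 and Junb.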
